A study of Mus musculus with 52 samples.

Results

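The spinal cord of mice that carry mutant human profilin-1 and received an AAV with an artificial microRNA against Atxn2 was compared with the spinal cord of mice with the same transgene that received vehicle. The members were the spinal cord libraries whose titles name these 2 groups, which gave 12 of the 52 libraries of the series, 6 per group. Each library was made from the mRNA of 15 to 20 mg of powdered tissue, and the values are gene counts from paired reads of 100 bp. The series also holds cortex and skeletal muscle of the same 3 arms.

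The treated group (PFN1 C71G genotype, amiR_ATXN2 treatment) had 3 females and 3 males, all of 36 weeks except 2 females of 38 and 39 weeks. The vehicle group (PFN1 C71G genotype, vehicle) also had 3 females and 3 males, all of 36 weeks except 2 females of 39 weeks. Wild-type FVB/NJ mice given vehicle (3 females and 3 males of 36 weeks) entered the model and give a further level for each gene. Both transgenic groups carry the human PFN1 transgene, and the labels used here do not give its promoter, the vector dose, the route or the age at injection. No group received a vector without the amiR, so the vector and the amiR cannot be told apart. Labels do not say outright that each library is one animal, so the p-values measure the spread between these libraries.

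Ataxin-2, the product of Atxn2, is an RNA-binding protein of stress granules and of polyribosomes, and expansions of its glutamine tract raise the risk of amyotrophic lateral sclerosis (ALS). An artificial microRNA is a designed hairpin carried in a microRNA backbone. After processing, its guide strand leads the silencing complex to transcripts with a matching sequence and lowers them. Profilin-1 binds actin monomers and promotes filament growth, and mutations in it cause a familial form of ALS, in which motor neurons die and microglia and astrocytes around them become reactive.

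Total counts per library ranged from 73217691 to 96859266, and caudal Hox, motor neuron and oligodendrocyte genes were present in all of them. Markers of other tissues set 3 libraries apart. The 10 skeletal muscle genes summed to 733 CPM (counts scaled to the same library total, before TMM) in treated replicate 2, against 2.01 to 20.3 CPM in the other 11. The 6 adipocyte genes, chosen after their values were seen, summed to 963 CPM in that library, with the brown fat uncoupling protein Ucp1 at 240.4 CPM, and to 83.7 CPM in vehicle replicate 1, against 1.64 CPM or less in the other 10. The 7 Schwann cell genes, markers of nerve roots, summed to 1373 and 1049 CPM in vehicle replicates 1 and 6, against 154 to 209 CPM in the other 10. Blood markers were highest in vehicle replicate 5, where 5 erythroid genes summed to 707.7 CPM and 8 neutrophil and monocyte genes to 90.2 CPM, against at most 378 and 35.7 CPM in the other 11. Results are also given without treated replicate 2 and vehicle replicates 1 and 6, a choice made after seeing the data that keeps vehicle replicate 5. Without vehicle replicate 5 alone, 394 genes were called, among them 3 disease-associated microglia and 2 cholesterol synthesis genes, against 9 and 11 with it. Library names contradict the titles on treatment in 4 of the 12 libraries (treated replicates 1 and 2, vehicle replicates 5 and 6). Titles set the groups here, and vector RNA was present in all 6 libraries titled as treated and in none titled as vehicle.

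**Figure D1:**
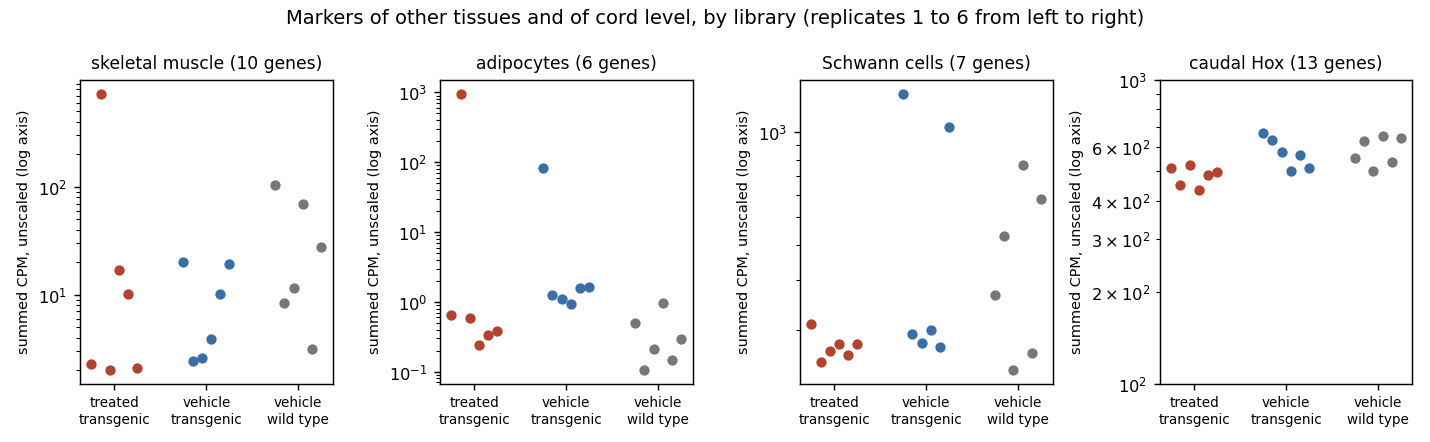
Summed CPM (unscaled, log axis) of markers of skeletal muscle, adipocytes, Schwann cells and caudal Hox genes in each spinal cord library, with treated transgenic left, vehicle transgenic in the middle and wild type right. Treated replicate 2 stands out for muscle (733 CPM) and adipocyte genes (963 CPM), and vehicle replicates 1 and 6 for Schwann cell genes (1373 and 1049 CPM), and in wild type Schwann cell genes reach 767 CPM and muscle genes 104 CPM.

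Vector transcripts were found in every treated library. Sense counts on the WPRE, a viral element placed behind the expression cassette, ranged from 36.4 to 77.3 CPM (median 50.8) in treated libraries, and were 0 in the 6 vehicle libraries, where 3 counts would have been 0.031 to 0.038 CPM. Sense counts on the miRE row, the microRNA backbone, ranged from 8.48 to 18.2 CPM (median 12.8) in treated libraries and were 0 in vehicle libraries. The 2 vector rows were highest in treated replicate 4 and lowest in treated replicate 1.

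Atxn2, the target (chromosome 5, 121711337 to 121816493 on the plus strand of GRCm38), fell in every treated library. Its level after TMM scaling was 70.9, 72.7 and 73.5 CPM (lowest, median, highest) in treated cords and 103, 106 and 111 CPM in vehicle cords, while wild-type cords had 118 to 133 CPM. The groups did not overlap, and the spread within the treated group was narrow. The log2 fold change was -0.55 (SE 0.03, edgeR adjusted p = 8.14e-08). On unscaled CPM the treated mean was 72.5 ± 3.61, against 109.9 ± 2.82 in vehicle cords (SD, n = 6 each), a difference of -34.0% with an exact two-sided permutation p of 0.00216, the smallest that 6 against 6 libraries allow. Over the 6 treated libraries no relation of Atxn2 to WPRE RNA passed the test (Pearson r = -0.02, exact permutation p = 0.972, and Spearman rho = 0.20, exact permutation p = 0.714). Without the 2 libraries farthest from the median of vector RNA r was 0.82, so this relation rests on single libraries. None of 6 genes tested against vector RNA reached an adjusted permutation p below 0.794.

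The transgene itself was not called. Human PFN1 stood at 607, 834 and 1167 CPM (unscaled; lowest, median, highest) in treated cords and averaged 848.8 ± 227 CPM there, against 686.9 ± 43.7 CPM in vehicle cords (SD, n = 6 each; exact two-sided permutation p = 0.147). Treated replicates 2, 4 and 5 had the highest human PFN1, at 879.5, 1042 and 1167 CPM. Mouse Pfn1 was at 83.6 to 99.3 CPM in treated and 92.4 to 109 CPM in vehicle cords, and was not called (log2 -0.12, SE 0.06, edgeR adjusted p = 0.203).

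Across the transcriptome, 1037 of 20307 genes tested were called at an adjusted p below 0.05 (5.11%): 593 rose (2.92%) and 444 fell (2.19%). On total counts without TMM scaling the balance turned, with 225 higher and 333 lower. Most changes were small, with a median absolute log2 fold change of 0.29, and 79 genes passed 2-fold, of which 25 rose and 54 fell. The 6 treated libraries lay wholly outside the range of the 6 vehicle libraries for 453 genes (2.23%), 236 of them higher (1.16%) and 217 lower (1.07%), and 352 were among the called genes. The count of calls depended on which libraries were in the fit. Without treated replicate 1 it was 2539, without treated replicates 2, 4 and 5 it was 571, 242 and 368, and with 1 vehicle library left out it was 394 to 691. Without the 3 libraries with RNA of other tissues, 71 genes were called (28 rose, 43 fell), 68 of them called with all libraries. All 1037 genes had the same direction in that smaller fit, 1035 of them with an unadjusted p below 0.05 in edgeR. The median ratio of their log2 fold changes to those with all libraries was 0.938. These genes were chosen by the fit with all libraries, and the smaller fit reuses most of those libraries. Their agreement was therefore largely fixed in advance and is no separate evidence.

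Besides Atxn2, the smallest p-values belonged to genes outside the gene lists, named here after their values were seen. Atxn7l3b, an intronless gene related to a subunit of the SAGA deubiquitinase, had an adjusted p equal to that of Atxn2. It was at 114, 121 and 126 CPM in treated and 170.2, 175 and 182 CPM in vehicle cords (lowest, median, highest), with no overlap. Its log2 fold change was -0.54 (SE 0.03, edgeR adjusted p = 8.14e-08), and it was also lower in treated cortex (log2 -0.39, edgeR adjusted p = 9.58e-08 in the joint model of tissues). Dennd1a, an exchange factor for the endosomal GTPase Rab35, was at 31.3 to 35.2 CPM in treated and 40.9 to 46.3 CPM in vehicle cords. It fell by 0.39 on the log2 scale in cord (SE 0.04, edgeR adjusted p = 0.000431) and was lower in treated cortex too (log2 -0.30, edgeR adjusted p = 0.00373). Neither gene overlapped between treated and vehicle cords.

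Other genes of this kind moved in cord. Dgkg, a diacylglycerol kinase of neurons, was at 24.4, 30.3 and 40.6 CPM in treated, 15.4, 19.2 and 22.5 CPM in vehicle and 30.8 to 32.8 CPM in wild-type cords, so the treated median was close to the wild-type range (log2 0.73, SE 0.09, edgeR adjusted p = 0.000431). Fgf21, a hormone of the fibroblast growth factor family that is induced by metabolic stress, was at 0.359, 1.07 and 3.96 CPM in treated cords and 0, 0.0299 and 0.0864 CPM in vehicle cords. Every treated library was above every vehicle library. Its log2 fold change of 5.47 (SE 0.65, edgeR adjusted p = 0.000431) rests on vehicle levels of a few counts, and treated replicates 2 and 4 were highest, at 2.85 and 3.96 CPM. Without the 3 libraries with RNA of other tissues the log2 fold change was 4.64 (edgeR adjusted p = 0.00981). The tetraspanin gene Tspan17 fell to 14.1 to 16.7 CPM in treated cords, against 20.3 to 26.0 CPM in vehicle cords (log2 -0.66, SE 0.08, edgeR adjusted p = 0.000431). Aldh18a1, a mitochondrial enzyme of proline synthesis, fell to 15.3 to 18.5 CPM in treated cords, against 21.5 to 23.4 CPM in vehicle cords (log2 -0.41, SE 0.05, edgeR adjusted p = 0.000431).

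**Figure D2:**
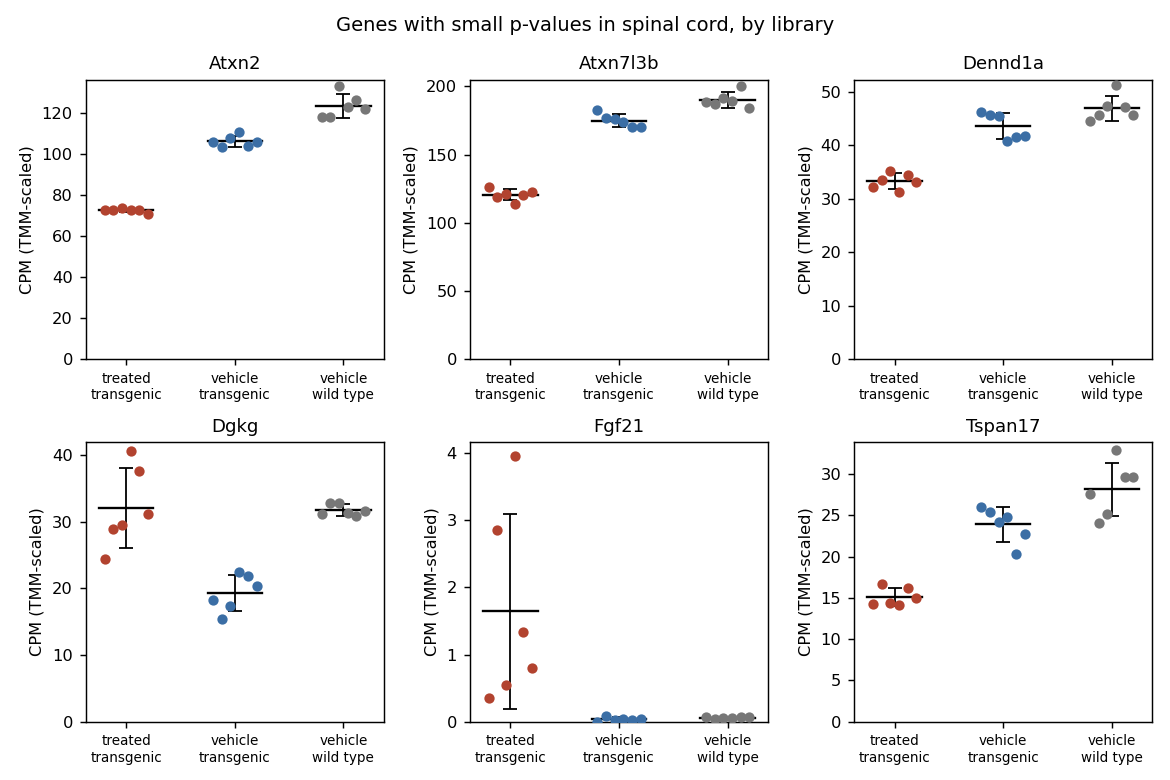
TMM-scaled CPM of Atxn2 and 5 genes with small p-values in each spinal cord library (points), with the mean and SD of 6 libraries per group in black; treated transgenic left, vehicle transgenic in the middle, wild type right. Treated and vehicle libraries did not overlap for any of the 6 genes, and treated Atxn2 values lay between 70.9 and 73.5 CPM.

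Phagocyte genes were among the largest falls. Gpnmb, a glycoprotein of lipid-laden macrophages and reactive microglia, was at 3.38, 15.3 and 62.5 CPM in treated cords (lowest, median, highest), at 155, 183 and 212 CPM in vehicle cords, and at most 0.792 CPM in wild-type cords. Every treated library was below every vehicle library, and treated replicates 2, 4 and 5 were lowest. These 3 also had the most human PFN1, and the part of transgene level in the result was not tested. The log2 fold change was -2.97 (SE 0.57, edgeR adjusted p = 0.011). Lyz2, the lysozyme of macrophages, was at 79.2, 194 and 572 CPM in treated and 768, 845 and 942 CPM in vehicle cords, without overlap (log2 -1.77, SE 0.45, edgeR adjusted p = 0.0333). Lyz1, the second lysozyme gene, had a log2 fold change of -2.86 (SE 0.52, edgeR adjusted p = 0.00789). The coding sequences of Lyz1 and Lyz2 are much alike, so reads may have been split between them.

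Other genes had falls of similar size. Mcoln3, an endolysosomal cation channel, was at 0.351 CPM (median) in treated and 3.66 CPM (median) in vehicle cords (log2 -2.72, SE 0.57, edgeR adjusted p = 0.0158). Atp6v0d2, a proton pump subunit of macrophages and osteoclasts, was at 0.525 to 13.9 CPM in treated and 22.7 to 30.6 CPM in vehicle cords (log2 -2.41, SE 0.59, edgeR adjusted p = 0.0297). Anpep, the surface aminopeptidase CD13, was at 2.73 to 9.30 CPM in treated, 16.8 to 21.7 CPM in vehicle and 2.03 to 2.89 CPM in wild-type cords (log2 -1.89, SE 0.23, edgeR adjusted p = 0.000477). No treated library reached the vehicle range for these 3 genes. Ms4a7, Htr2b, Hal, Mmp12 (macrophage elastase), Hpse (heparanase) and Ccn5 completed the 12 largest falls, with log2 fold changes between -1.98 and -1.65. Mmp12 and Lyz2 were close to the threshold, being called in 2 and 3 of the 12 fits that each left out 1 library.

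**Figure D3:**
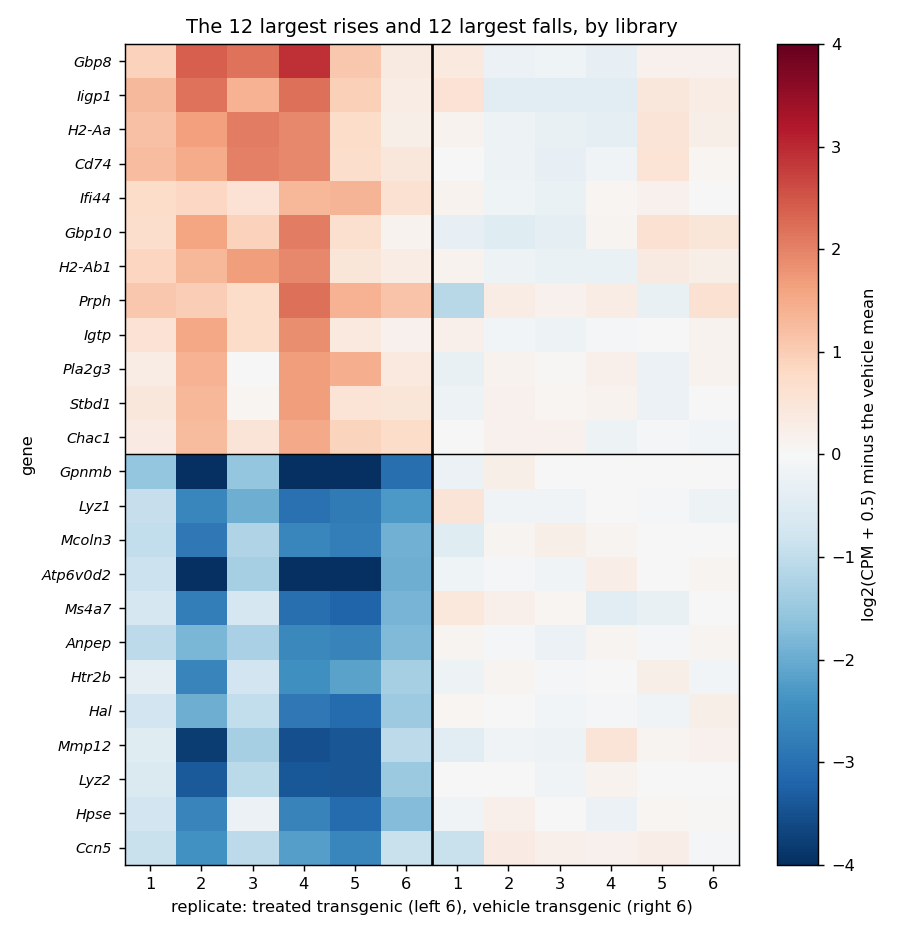
Log2(CPM + 0.5) minus the mean of the vehicle libraries for the 12 largest rises (upper block) and 12 largest falls (lower block) among calls averaging 1 CPM or more in each of the 6 treated (left) and 6 vehicle (right) libraries; the colour scale ends at 4 in either direction. Treated replicates 2, 4 and 5 show the deepest falls, and Cd74 is highest in treated replicates 3 and 4.

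As a list, disease-associated microglia genes, the set that microglia switch on around dying neurons and plaques, fell in 9 of 26 members tested, and none rose, beside 2.19% of all genes that fell. The median log2 fold change was -0.71, against 0.00 for all genes, and 25 of the 26 genes had been called higher in vehicle than in wild-type cords, where 18.8% of all genes were; both comparisons share the vehicle libraries. Besides Gpnmb and Atp6v0d2, the members that fell were Lgals3 (log2 -1.22), Cd68 (-1.11), Igf1 (-0.79) and the cathepsin genes Ctsd (-0.76), Ctsz (-0.58), Ctsb (-0.55) and Ctsl (-0.48). Lgals3, galectin-3, was at 10.7, 23.9 and 35.4 CPM in treated and 44.1, 51.9 and 66.4 CPM in vehicle cords, without overlap (edgeR adjusted p = 0.029). Igf1, a growth factor made by reactive microglia, was at 4.73 to 9.41 CPM in treated and 9.86 to 15.6 CPM in vehicle cords, again without overlap (edgeR adjusted p = 0.0185). Trem2, the receptor that drives this state, and its adaptor Tyrobp missed the threshold at log2 -0.82 and -0.85 (edgeR adjusted p = 0.0507 and 0.0591), and Apoe did so at -0.79 (edgeR adjusted p = 0.0635). The count of members called was 21 without treated replicate 1, 2 without treated replicate 5, 1 without treated replicate 4 and 3 to 5 without treated replicate 2 or any 1 vehicle library. Without the 3 libraries with RNA of other tissues only Gpnmb was called, the median was -0.58 and none of the 26 values was positive. Bulk libraries cannot tell fewer cells of a type from less RNA per cell.

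Homeostatic microglia genes gave no call among 14 (median log2 -0.15). P2ry12, the purinergic receptor of resting microglia, was at 23.2 to 30.0 CPM in treated and 19.9 to 29.8 CPM in vehicle cords (log2 0.08), and Tmem119 had a log2 value of 0.07. In lists of phagocyte function few members passed the test while most values were negative. Fc receptors and the Ms4a family had 2 falls among 10, beside 2.19% of all genes (Fcgr2b, the inhibitory Fc receptor, at log2 -1.23, and Ms4a7). The phagocyte NADPH oxidase had 1 fall among 6 (Cyba, its p22phox subunit, at log2 -0.97, SE 0.23, edgeR adjusted p = 0.0247), and all 6 values were negative. Complement genes gave no call among 18 (median -0.43, C1qa at -0.51) and Toll-like receptors none among 12, all 12 with negative values (median -0.30). Lists of border-associated macrophages, neutrophils and monocytes, dendritic cells and B and plasma cells gave no call.

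Lysosomal enzymes and lysozymes fell in 9 of 26 members, beside 2.19% of all genes, and none rose (median log2 -0.24). Lipa, the lysosomal acid lipase that frees cholesterol from its esters, was at 47.0, 52.9 and 65.5 CPM in treated and 67.5, 70.8 and 79.9 CPM in vehicle cords, without overlap (log2 -0.41, SE 0.07, edgeR adjusted p = 0.00508). Hexa (log2 -0.52), a subunit of beta-hexosaminidase, Ctsa (-0.33), the Batten disease gene Cln3 (-0.29), the ceramidase Asah1 (-0.25) and Gla (-0.24) were among the others that fell. Of 17 listed subunits of the V-ATPase, the pump that acidifies lysosomes and synaptic vesicles, 4 rose and none fell (median 0.08), beside 2.92% of all genes that rose. This list does not hold Atp6v0d2, the subunit of macrophages that fell and was counted with the microglia genes. Atp6v1h was at 133 to 159 CPM in treated and 122 to 135 CPM in vehicle cords (log2 0.19, SE 0.04, edgeR adjusted p = 0.0149), and Atp6v1a, Atp6v1b2 and Atp6v1d rose by 0.18 to 0.24 on the log2 scale; on total counts without TMM scaling none of the 4 was called. Without treated replicate 4 the counts were 2 lysosomal genes and 1 V-ATPase gene, and without the 3 libraries with RNA of other tissues no member of either list was called, with medians of -0.22 and 0.07.

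Promoters of 2 genes are shown because the lysosomal element, the palindrome TCACGTGA searched on both strands, stands in windows of both lists. In RefSeq windows of GRCm38.p6 (250 bases before to 50 after the start site) it was found for 1.125% of 27025 genes, for 4 of 21 lysosomal genes with a window (19.05%), for 3 of 13 V-ATPase genes (23.08%) and for 1 of 21 disease-associated microglia genes (4.762%). Among called members with a window, 3 of 7 lysosomal, 1 of 2 V-ATPase and 1 of 7 disease-associated microglia genes had the element. The first 260 bases of each window are shown 5′ to 3′ on the gene's strand with the element in capitals, for Cln3, which fell (chr7:126583227-126583486, minus strand, element starting 122 bases before the start site), and for Atp6v1a, which rose (chr16:44139250-44139509, minus strand, 132 bases before it).
Cln3: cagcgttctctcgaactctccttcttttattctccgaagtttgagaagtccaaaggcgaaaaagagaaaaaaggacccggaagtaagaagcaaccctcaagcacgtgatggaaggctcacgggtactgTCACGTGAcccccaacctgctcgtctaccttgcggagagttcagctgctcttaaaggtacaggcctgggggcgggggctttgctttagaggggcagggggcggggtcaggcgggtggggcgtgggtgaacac
Atp6v1a: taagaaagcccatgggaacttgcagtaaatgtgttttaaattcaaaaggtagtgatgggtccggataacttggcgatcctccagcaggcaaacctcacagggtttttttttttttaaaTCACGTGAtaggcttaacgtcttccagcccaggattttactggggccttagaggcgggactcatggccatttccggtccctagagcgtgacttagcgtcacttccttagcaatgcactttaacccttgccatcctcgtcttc
A match is a run of letters in these windows, and binding was not measured.

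Among lipid handling genes of phagocytes, the cholesterol exporter gene Abcg1 fell (log2 -0.31, SE 0.08, edgeR adjusted p = 0.0333), as did the phospholipid transfer protein gene Pltp (log2 -0.20, SE 0.06, edgeR adjusted p = 0.0491). The other 16 of 18 members were not called, and 2.19% of all genes fell. Fabp4 and Cd36 were at 524 and 209 CPM in treated replicate 2, the library with adipocyte RNA, and their medians were 0.241 and 2.89 CPM in treated and 1.12 and 4.51 CPM in vehicle cords.

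Of the 12 largest rises among genes averaging 1 CPM or more, 8 were interferon-inducible or class II genes, and the others were Prph, Chac1, the phospholipase gene Pla2g3 (log2 1.05) and the glycogen-binding protein gene Stbd1 (log2 0.999). Cd74, the invariant chain that escorts MHC class II molecules, was at 30.8, 58.6 and 92.2 CPM in treated, 17.8, 21.6 and 32.9 CPM in vehicle and 8.90 CPM (median) in wild-type cords. The lowest treated library was within the vehicle range, and all 6 were above the vehicle mean (log2 1.41, SE 0.26, edgeR adjusted p = 0.00798). H2-Aa and H2-Ab1, the chains of the class II molecule I-A, had log2 fold changes of 1.45 (SE 0.30, edgeR adjusted p = 0.0151) and 1.28 (SE 0.28, edgeR adjusted p = 0.0191). With Cd74 these were the 3 called members of 10 class II genes (median 0.58), beside 2.92% of all genes that rose, and the class II transactivator gene Ciita had a log2 value of 1.17 (edgeR adjusted p = 0.0791). Without treated replicate 4 a single class II gene was called, and without the 3 libraries with RNA of other tissues none was, with edgeR adjusted p of 0.0697 for Cd74, 0.086 for H2-Aa and 0.0925 for H2-Ab1. Class I presentation genes gave no call among 17 (median 0.14).

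Of 16 interferon-inducible GTPases, which attack vacuoles of intracellular microbes, 5 rose, beside 2.92% of all genes. All 16 values were positive (median 0.80). Gbp8 was at 0.623, 2.37 and 6.07 CPM in treated and 0.196, 0.377 and 0.652 CPM in vehicle cords (log2 2.86, SE 0.64, edgeR adjusted p = 0.0207). Iigp1 was at 3.29, 7.29 and 13.5 CPM in treated and 1.74, 2.53 and 4.06 CPM in vehicle cords (log2 1.58, SE 0.38, edgeR adjusted p = 0.0294). In both, the lowest treated library lay inside the vehicle range, and treated replicates 2 and 4 were among the highest. Gbp10 (log2 1.296), Igtp (1.07) and Irgm1 (0.43) rose too. No member was called without treated replicate 4 or without the 3 libraries with RNA of other tissues, where the median was 0.89 and all 16 values were positive, and 8 were called without treated replicate 1 or 6.

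Type I interferon-stimulated genes rose in 8 of 33 members and fell in none (median 0.38), beside 2.92% of all genes that rose, and 7 of the 33 had no overlap between the groups, beside 2.23% of all genes. Ifi44 was at 1.46, 1.75 and 2.89 CPM in treated and 0.594, 0.868 and 0.993 CPM in vehicle cords (log2 1.296, SE 0.24, edgeR adjusted p = 0.00822). Oasl2, of the oligoadenylate synthase-like family, was at 7.03 to 13.2 CPM in treated and 5.28 to 6.71 CPM in vehicle cords (log2 0.73, SE 0.14, edgeR adjusted p = 0.0113). Neither gene overlapped between the groups. Oasl1 (1.44), Usp18 (0.82), Irf7 (0.54), Ifit1 (0.48) and Rtp4 (0.39) also rose, as log2 fold changes. The list had 4 to 12 calls when any 1 library was left out and had none without the 3 libraries with RNA of other tissues, where the median was 0.29 and 31 of 33 values were positive.

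Chemokine genes moved both ways. Cxcl13, the B cell attractant, was at 0.515, 0.973 and 2.09 CPM in treated and 0.128, 0.264 and 0.293 CPM in vehicle cords (log2 2.24, SE 0.36, edgeR adjusted p = 0.00437). Cxcl9 (log2 2.60, edgeR adjusted p = 0.0479) and Ccl5 (log2 1.22, edgeR adjusted p = 0.0286), both attractants of T cells, rose as well. They were called in 4 and 6 of the 12 fits that each left out 1 library. Neither was called without the 3 libraries with RNA of other tissues (edgeR adjusted p = 0.0925 and 0.153). Cxcl9 overlapped between the groups, at 0.311 to 2.58 CPM in treated and 0.035 to 0.499 CPM in vehicle cords. Cxcr4, the receptor for Cxcl12 on microglia and other leukocytes, fell to 4.98, 6.80 and 10.9 CPM in treated cords, against 12.5, 14.5 and 16.5 CPM in vehicle cords (log2 -0.999, SE 0.18, edgeR adjusted p = 0.0075). Cxcl13 and Cxcr4 did not overlap between the groups and were called in all 12 fits without 1 library and without the 3 libraries with RNA of other tissues. Of 17 T cell genes tested, only Cd8a was called, beside 5.11% of all genes called either way. The co-receptor gene of cytotoxic T cells was at 0.232, 0.342 and 0.666 CPM in treated and 0.0540, 0.0894 and 0.124 CPM in vehicle cords, without overlap (log2 2.19, SE 0.37, edgeR adjusted p = 0.00616), while Cd3e had a log2 value of 0.70 (edgeR adjusted p = 0.255). Cd8a was not called without the 3 libraries with RNA of other tissues (edgeR adjusted p = 0.055).

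Promoters are shown for 2 of the genes that rose, Ifi44 and Igtp, because their windows hold the interferon element searched (GAAANNGAA on both strands). It was found in the windows of 9.761% of 27025 genes, in 14 of 22 type I interferon-stimulated genes with a window (63.64%), in 9 of 10 interferon-inducible GTPases (90%), in 4 of 15 class I genes (26.67%) and in 0 of 7 class II genes. Among called members with a window, 2 of 5 type I genes, 2 of 2 GTPases and 0 of 1 class II gene had the element. Ifi44 (chr3:151749901-151750160, minus strand of GRCm38.p6) has it starting 3 bases before the start site and Igtp (chr11:58199306-58199565, plus strand) 34 bases before it. The first 260 bases of each RefSeq window are given 5′ to 3′ on the gene's strand, with the element in capitals.
Ifi44: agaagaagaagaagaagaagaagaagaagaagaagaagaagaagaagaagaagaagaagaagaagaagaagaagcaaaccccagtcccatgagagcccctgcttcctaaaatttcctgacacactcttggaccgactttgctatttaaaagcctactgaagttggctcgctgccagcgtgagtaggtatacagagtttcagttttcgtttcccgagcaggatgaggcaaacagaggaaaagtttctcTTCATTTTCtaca
Igtp: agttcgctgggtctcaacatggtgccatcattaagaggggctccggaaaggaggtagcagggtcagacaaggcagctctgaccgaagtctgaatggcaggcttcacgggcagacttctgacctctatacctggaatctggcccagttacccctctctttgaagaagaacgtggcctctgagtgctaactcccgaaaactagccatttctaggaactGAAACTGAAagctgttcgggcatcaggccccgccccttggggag
The sterol element searched (TCACNCCAC) was in the windows of 1.436% of all genes and in 1 of 15 cholesterol synthesis genes with a window. The TCACGTGA, GAAANNGAA and TCACNCCAC searches allow no mismatch, and no match says only that these letters are not in the window.

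**Figure D4:**
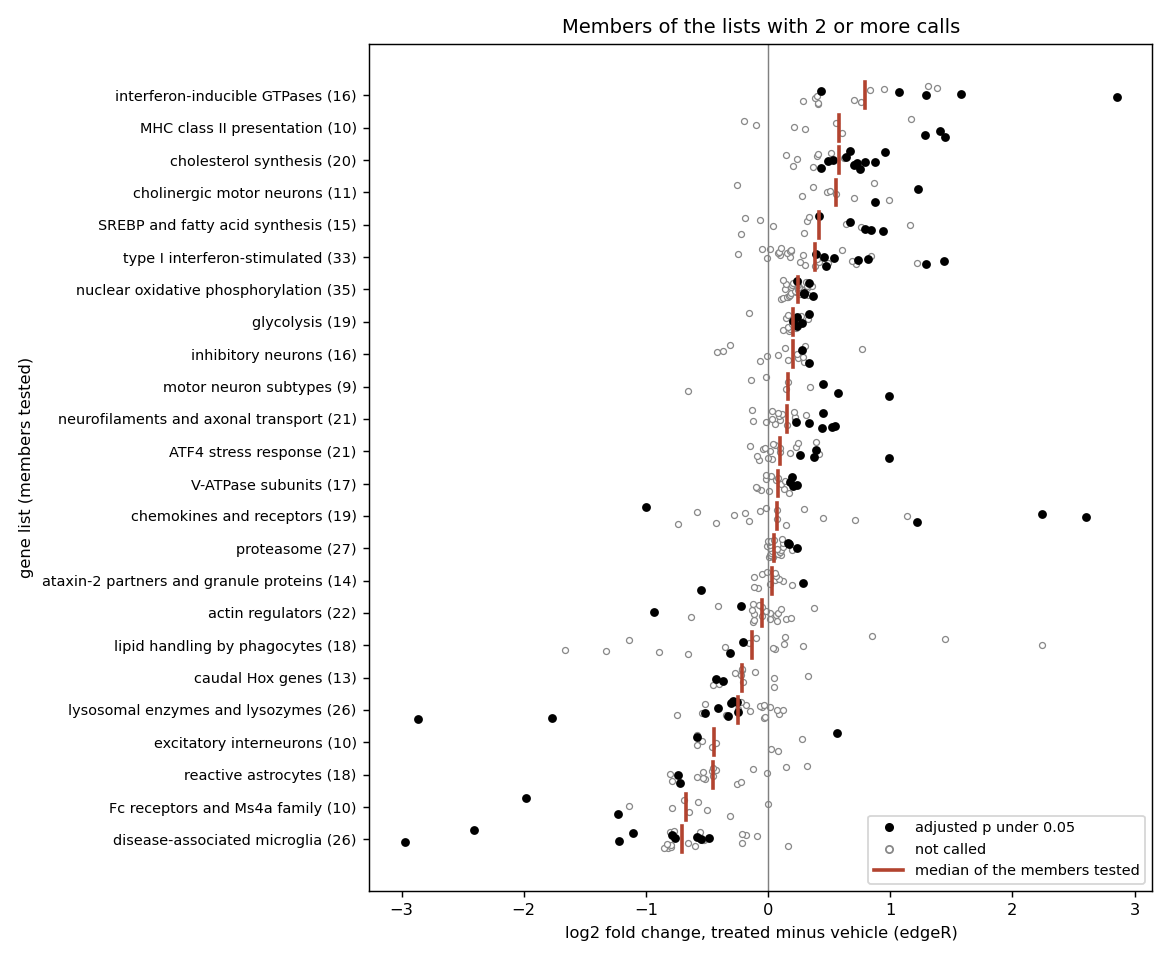
Log2 fold change (treated minus vehicle, edgeR) of each tested member of the gene lists with 2 or more calls, sorted by the list's median (red bar); filled points passed an adjusted p of 0.05 and open points did not. Interferon-inducible GTPases, class II and cholesterol synthesis genes stand at the upper end and disease-associated microglia genes (median -0.71) at the lower end.

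Reactive astrocyte genes fell in 2 of 18 members (median log2 -0.45), beside 2.19% of all genes that fell. Vim, the intermediate filament vimentin, was at 184, 295 and 459 CPM in treated, 417, 505 and 595 CPM in vehicle and 57.3 to 98.6 CPM in wild-type cords, with overlap (log2 -0.72, SE 0.20, edgeR adjusted p = 0.0498). S1pr3, a sphingosine phosphate receptor, fell to 11.8 to 23.6 CPM in treated cords, against 21.8 to 38.8 CPM in vehicle cords (log2 -0.73, SE 0.19, edgeR adjusted p = 0.034). Gfap, the classic marker, was at 2285 to 6418 CPM in treated and 4516 to 5155 CPM in vehicle cords and was not called (log2 -0.26, edgeR adjusted p = 0.534). The treated range was wider than the vehicle range on both sides. No reactive astrocyte gene was called without treated replicate 2, 4 or 5 or without vehicle replicate 1, 4, 5 or 6, and 8 were called without treated replicate 1. Of 17 homeostatic astrocyte genes 1 rose, the D-serine transporter gene Slc7a10 (log2 0.47, SE 0.12, edgeR adjusted p = 0.0318), beside 2.92% of all genes that rose. None of 22 myelin and 13 oligodendrocyte precursor genes was called.

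Of 20 cholesterol synthesis genes, 11 rose, beside 2.92% of all genes, none fell and 9 did not pass the test. All 20 values were positive (median log2 0.58). All 20 had been called lower in vehicle than in wild-type cords, where 17.9% of all genes were. The vehicle libraries are shared by both comparisons, so a low vehicle value enters both. Sqle, squalene epoxidase, was at 37.4, 79.1 and 119 CPM in treated, 35.5, 41.5 and 55.4 CPM in vehicle and 87.4 to 128 CPM in wild-type cords (log2 0.79, SE 0.18, edgeR adjusted p = 0.0239). Treated replicates 1 and 3 (46.4 and 37.4 CPM) lay inside the vehicle range and the other 4 above it. Acat2, a thiolase that makes acetoacetyl-CoA, was at 45.5, 70.1 and 90.7 CPM in treated, 38.9, 41.2 and 48.6 CPM in vehicle and 70.2 to 81.5 CPM in wild-type cords (log2 0.67, SE 0.13, edgeR adjusted p = 0.0115). Fdft1 (log2 0.87), Hmgcs1 (0.75), Fdps (0.73), Mvd (0.70), Nsdhl (0.64), Cyp51 (0.53) and Lss (0.49) also rose. Of 15 further genes of the SREBP and fatty acid pathway, 5 rose, beside 2.92% of all genes. Among them were Insig1 (log2 0.84), Stard4 (0.79), Acly (0.67) and Lpin1 (0.42).

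Single libraries moved these counts. Cholesterol genes called numbered 19 without treated replicate 1, 1 without treated replicate 4, 2 without treated replicate 5, 3 without treated replicate 2, the library with adipocyte RNA, and 2 to 7 without any 1 vehicle library. Without the 3 libraries with RNA of other tissues none was called, while all 20 values were positive with a median of 0.47. Acly, ATP citrate lyase, reached 616 CPM in treated libraries, and its log2 fold change was 0.46 (edgeR adjusted p = 0.109) without those 3 libraries.

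Some motor neuron genes rose in treated cords. Prph, peripherin, the intermediate filament of motor and sensory neurons, was at 41.1, 53.7 and 115 CPM in treated, 11.1, 29.1 and 38.2 CPM in vehicle and 39.9 to 53.1 CPM in wild-type cords. No treated library reached down to the vehicle range, treated replicate 4 was far above the others, and vehicle replicate 1 was the lowest (log2 1.23, SE 0.23, edgeR adjusted p = 0.00822). Chat, choline acetyltransferase, was at 20.9, 22.8 and 43.2 CPM in treated, 6.14, 15.2 and 18.2 CPM in vehicle and 22.2 to 29.8 CPM in wild-type cords, without overlap of treated and vehicle (log2 0.88, SE 0.19, edgeR adjusted p = 0.0177). Of 11 cholinergic motor neuron genes these 2 rose, beside 2.92% of all genes, and 10 values were positive (median 0.55). All 11 had been called lower in vehicle than in wild-type cords, where 17.9% of all genes were. Both comparisons share the vehicle libraries, so a low vehicle value, such as that of replicate 1 (Prph 11.1 and Chat 6.14 CPM), enters both. The choline transporter gene Slc5a7 had a log2 value of 0.99 (edgeR adjusted p = 0.056) and the vesicular transporter gene Slc18a3 one of 0.70 (edgeR adjusted p = 0.0977).

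Of 9 motor neuron subtype genes 3 rose, beside 2.92% of all genes. These were Chodl (log2 0.99) and Mmp9 (0.57), markers of fast motor neurons, and Esrrg (0.45), a marker of gamma motor neurons. Chodl was at 13.7, 20.0 and 44.9 CPM in treated, 3.34, 10.9 and 19.3 CPM in vehicle and 34.3 to 56.3 CPM in wild-type cords, and treated and vehicle overlapped. Of 21 neurofilament and axonal transport genes 6 rose, beside 2.92% of all genes, and none fell, with 2 called on total counts alone. The 6 were Nefh (log2 0.54), Nefm (0.52), Tubb3 (0.45), Nefl (0.44), Stmn2 (0.34) and Stmn3 (0.23). Stmn2, stathmin-2, whose splicing depends on TDP-43 in human neurons, was at 284, 341 and 405 CPM in treated and 248, 275 and 289.9 CPM in vehicle cords (SE 0.07, edgeR adjusted p = 0.014). Without the 3 libraries with RNA of other tissues Prph was the only gene of these 3 lists called (log2 1.20, SE 0.22, edgeR adjusted p = 0.0349), and Chat had a log2 fold change of 0.78 (edgeR adjusted p = 0.0613). Neuronal injury genes gave no call among 12 (median -0.25, Atf3 at -0.77).

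Caudal Hox genes, which mark the position along the cord, also varied. Hoxd10, a gene of lumbosacral segments, was at 0.0333 CPM (unscaled) in treated replicate 4 and 2.29 to 20.0 CPM in the other treated libraries, against 1.98 to 24.3 CPM in vehicle libraries. Hoxb9 and Hoxb8 were the 2 of 13 caudal Hox genes called, both lower with treatment (log2 -0.43 and -0.37), beside 2.19% of all genes that fell. Without the 3 libraries with RNA of other tissues neither was called (edgeR adjusted p = 0.0711 and 0.0838). The summed level of the 13 genes had a median of 492 CPM in treated and 572 CPM in vehicle libraries, and the ranges overlapped. The part of cord level in the motor neuron results was not tested. Without treated replicate 4 the log2 fold changes were 1.02 for Prph (edgeR adjusted p = 0.0223) and 0.72 for Chat, which then missed the threshold.

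Among interneuron genes, Slc6a5, the glycine transporter of inhibitory neurons (log2 0.34, SE 0.08, edgeR adjusted p = 0.0255) rose while Lmx1b of dorsal excitatory neurons fell (-0.58). Of 19 synaptic vesicle genes only Nsf rose (0.24), beside 2.92% of all genes. None of 18 potassium channel, 9 sodium channel and 12 immediate early genes was called.

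**Figure D5:**
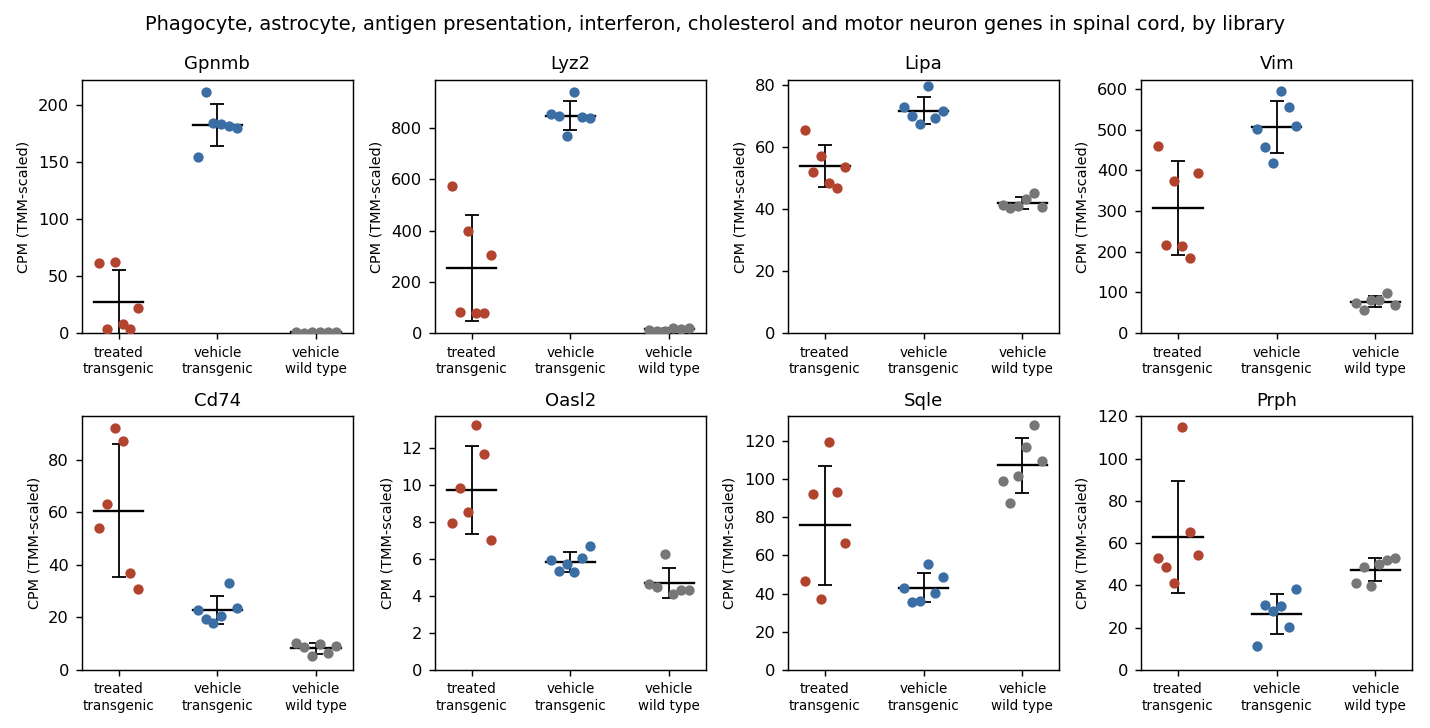
TMM-scaled CPM by library (points) with the mean and SD of 6 libraries per group in black, for phagocyte (Gpnmb, Lyz2), lysosomal (Lipa), astrocyte (Vim), class II (Cd74), interferon (Oasl2), cholesterol (Sqle) and motor neuron (Prph) genes; treated transgenic left, vehicle transgenic in the middle, wild type right. Gpnmb, Lyz2, Lipa, Oasl2 and Prph do not overlap between treated and vehicle libraries, and treated Cd74 (30.8 to 92.2 CPM) is farther from wild type than vehicle Cd74 (17.8 to 32.9 CPM).

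Genes of energy metabolism shifted by small amounts. All 35 nuclear genes of oxidative phosphorylation had positive values after TMM scaling (median log2 0.24). Of these, 5 were called, beside 2.92% of all genes that rose, or 3 on total counts alone. The 5 were Ndufa9 (0.37), Atp5a1 (0.33), Ndufb5 (0.29), Ndufs1 (0.29) and Atp5c1 (0.24), subunits of complex I and of the ATP synthase. Ndufa9 was at 86.1, 107 and 139 CPM in treated and 79.4, 84.9 and 85.9 CPM in vehicle cords, without overlap. Of 13 mitochondrially encoded genes mt-Nd5 rose (log2 0.40, SE 0.09, edgeR adjusted p = 0.0226), beside 2.92% of all genes. Mitochondrial genes took 8.99 ± 1.58% of counts in treated and 7.55 ± 0.561% in vehicle cords (SD, n = 6 each; exact two-sided permutation p = 0.039, 0.0779 after adjustment over 4 such values), with treated replicate 2 at 11.8%. Nuclear genes called numbered 4 without that replicate, 22 without treated replicate 1, 11 without treated replicate 3, 0 without treated replicate 4 or 5 or vehicle replicate 5, and 1 to 3 without vehicle replicate 1, 3 or 4. Without the 3 libraries with RNA of other tissues none was, and the median was 0.14. Glycolysis genes rose in 5 of 19 (Pgm1 at log2 0.33, Tpi1 at 0.28, Pfkp and Pkm at 0.24, Pgk1 at 0.20), beside 2.92% of all genes. Of the glycolysis genes 2 were called on total counts alone and none in that smaller fit. Proteasome genes rose in 3 of 27 (Psmb7 at 0.24, Psmc6 at 0.17, Psmd2 at 0.16), beside 2.92% of all genes. On total counts alone 1 was called, as without treated replicate 2 or 4 or any of vehicle replicates 1 to 5, and none was without the 3 libraries with RNA of other tissues. Fatty acid oxidation, heat shock and endoplasmic reticulum chaperone genes gave no call.

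Of 21 targets of the stress factor ATF4 4 rose and none fell, beside 2.92% of all genes that rose. The count was 2 on total counts alone or without vehicle replicate 3 or 6, 1 without treated replicate 2 or 4 or vehicle replicate 4 or 5, and 0 without the 3 libraries with RNA of other tissues. Chac1, a glutathione-degrading enzyme, was at 5.74, 8.19 and 13.5 CPM in treated and 3.77, 4.39 and 5.13 CPM in vehicle cords, without overlap (log2 0.99, SE 0.17, edgeR adjusted p = 0.00612). Mthfd2 (log2 0.39), Asns (0.37) and Sesn2 (0.26) rose as well, while Ddit3 and Trib3 had log2 values of 0.03 and 0.00. Chac1 was called in all 12 fits without 1 library, and without the 3 libraries with RNA of other tissues its log2 fold change was 0.85 (edgeR adjusted p = 0.0699).

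Among 14 partners of ataxin-2 and stress granule proteins, Atxn2 fell and G3bp2, a scaffold of stress granules, rose. G3bp2 was at 336, 357 and 379 CPM in treated, 251, 301 and 324 CPM in vehicle and 336 to 369.7 CPM in wild-type cords, without overlap of treated and vehicle (log2 0.29, SE 0.06, edgeR adjusted p = 0.0122). Of 9 ALS-linked RNA-binding protein genes Ewsr1 fell (log2 -0.12, SE 0.03, edgeR adjusted p = 0.0471), and of 14 ALS-linked genes of proteostasis and transport the phosphoinositide phosphatase gene Fig4 rose (0.27, SE 0.05, edgeR adjusted p = 0.00864). Over all genes 2.19% fell and 2.92% rose. Of 22 actin regulators 2 fell, beside 2.19% of all genes. Capg, an actin-capping protein of macrophages, was at 8.65 to 24.4 CPM in treated and 22.4 to 31.9 CPM in vehicle cords (log2 -0.94, SE 0.22, edgeR adjusted p = 0.0246). Cap1, which recycles cofilin-bound actin, was at 156 to 171 CPM in treated and 176 to 199.6 CPM in vehicle cords (log2 -0.22, SE 0.05, edgeR adjusted p = 0.019). Atxn2 was still called without the 3 libraries with RNA of other tissues, while G3bp2 (edgeR adjusted p = 0.084), Fig4 (0.0858), Ewsr1 (0.227), Capg (0.135) and Cap1 (0.0944) were not. Ewsr1 was called in 2 of the 12 fits that each left out 1 library.

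Across the 63 lists, 943 distinct genes were tested, and 29 lists had no call. Besides those named above, no call was found among p53 targets, proliferation genes (20 of 21 values negative), NAD metabolism, neurotrophic factors, endothelium, pericytes, meningeal fibroblasts, ependyma, sensory neurons and erythroid genes. Single calls in the remaining lists were the clock repressor gene Bhlhe41 (log2 -0.24), the ribosomal protein gene Rpl3 (log2 0.13) and Mmp12 among 13 metalloproteinase genes. Over all genes 5.11% were called either way. Schwann cell genes (median log2 -2.94) and skeletal muscle genes (median 3.06) had large medians but no call, and without the 3 libraries rich in such RNA their medians were 0.35 and 0.44.

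No gene passed the test of a difference between the sexes: the interaction of treatment and sex called 0 of 20307 genes in edgeR, 2843 having an unadjusted p below 0.05. The calls within each sex differed in number, with 70 genes (0.345%) in females and 1261 (6.21%) in males of the sex-by-arm model. The median of disease-associated microglia genes was -0.34 in females and -1.09 in males, that of reactive astrocyte genes -0.16 and -0.83, and that of cholesterol synthesis genes 0.42 and 0.72. Gpnmb had log2 fold changes of -2.10 in females and -4.01 in males, and no interaction among the named genes had an adjusted p below 0.286. All 95 named genes that were called had the same sign in both sexes, and 72 had the larger value in males. They were called in a fit that pools these same females and males, so a shared sign was largely fixed in advance. In each group 2 of the 3 females were older, so age is mixed with sex. Of the libraries with RNA of other tissues, treated replicate 2 and vehicle replicate 1 were female and vehicle replicate 6 was male. Treated replicates 4 and 5, which had the most human PFN1, were male. These differences are also mixed with sex, and their part was not tested.

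Treatment effects differed between cord and cortex for 15 of 22316 genes in the joint model (0.0672%), and all 15 were lower in cord, where the cortex itself had 114 calls (0.511%). Among the named genes these were Gpnmb (difference of log2 fold changes -3.97, -2.97 in cord and 1.00 in cortex), Hpse (-2.45), Anpep (-1.68) and Ctsb (-0.65). The median of disease-associated microglia genes was 0.14 in cortex, and that of interferon-inducible GTPases 0.52. The 11 others, which include the urokinase gene Plau, the TNF-inducible gene Tnfaip2 and Tspan17, were outside the rule for named genes.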

How the data were processed

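Per the submitters' processing notes, the tools were RSEM 1.3.2, STAR 2.7.2d, DESeq2 1.34.0 and bcl2fastq 2.20, with the builds GRCm38 and GRCh38. The deposited files hold RSEM expected counts per gene made by the authors, which were rounded to whole numbers here. Mouse genes entered the tests, while human PFN1 and vector rows were described apart. Genes were filtered with filterByExpr, scaled by TMM and tested with edgeR 4.0.16 (quasi-likelihood, Benjamini-Hochberg adjustment, threshold 0.05) in R 4.3.3. The model held arm and sex over 18 spinal cord libraries, including 6 wild-type ones, which share the estimate of spread. Interaction models tested sex and cord against cortex. Single values were tested by exact permutation. The test was checked on simulated counts.

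Named genes were the target, the transgene, the vector rows, the called genes averaging 1 CPM or more with the 12 highest and the 12 lowest fold changes (predicted models left out), and from every list the calls of smallest p, at most 4. Genes named outside this rule were chosen after their values were seen. The members and lists were chosen with earlier results of these data known. Alternatives were other scalings (RLE, none), DESeq2 1.42.0, other filters, RIN, age, the replicate number as a block, single sexes, 36-week mice, other handling of conflicting library names and each library left out. Deviations of same-numbered libraries from their group means had correlations from -0.04 to 0.27, and those of the other pairs from -0.26 to 0.37. Whether the numbers pair animals is not in the labels and was not tested. With 73217691 to 96859266 counts per library, 3 counts were in vehicle libraries 0.031 to 0.038 CPM, a floor that covers counting error only. Promoter windows are RefSeq's on GRCm38.p6, and gene coordinates are GENCODE M21's.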

Additional observations from a re-analysis of the deposited data

Results flagged for a closer look

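Among 199 tests of groups of 6 libraries for a value far from the other 5, 12 stood out, a share close to the 1 in 20 that chance gives. The number in each case is the gap to the nearest library as a share of the group's range, with a critical value of 0.625. In treated libraries these were Chat (replicate 4 highest, 0.803), Lyz1 (replicate 1 highest, 0.677), Prph (replicate 4 highest, 0.674), Atxn2 (replicate 6 lowest, 0.651) and Mthfd2 (replicate 4 highest, 0.633). In vehicle libraries they were Lyz1 (replicate 1 highest, 0.755), Mmp9 (replicate 5 highest, 0.727), Ndufa9 (replicate 5 lowest, 0.692), Lpin1 (replicate 4 highest, 0.677), Mcoln3 (replicate 1 lowest, 0.651), Ewsr1 (replicate 4 lowest, 0.646) and Pfkp (replicate 6 lowest, 0.630). Treated replicate 4, which accounts for 3 of the 12, is also the library with the most vector RNA (77.3 CPM of WPRE) and the least Hoxd10 (0.0333 CPM, unscaled).

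The treatment effect differed between spinal cord and cortex for 4 named genes, by the interaction term of the joint edgeR model. The difference of log2 fold changes was -3.97 for Gpnmb, -2.45 for Hpse, -1.68 for Anpep and -0.65 for Ctsb.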

How the results depend on the processing

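The 1037 calls (593 higher, 444 lower) varied with the fit, and the cause was not tested. Without TMM scaling there were 558 calls, 225 higher and 333 lower, with the median of all genes shifted by -0.046. DESeq2 called 2102 (1075 higher, 1027 lower), the fit without a filter 497 (273, 224), the 12 transgenic libraries alone 393 (255, 138) and the model with RIN 359 (231, 128). Mice of 36 weeks gave 96 calls (56 higher, 40 lower), females alone 5 (0 higher, 5 lower) and males alone 2413 (1455, 958). The fit with the replicate block gave 61 calls (32 higher, 29 lower), although the labels do not say that same-numbered libraries belong together. Without the 4 libraries with conflicting names 732 genes were called, 355 higher and 377 lower, 423 of them called the same way in the full fit, and with these grouped by library name edgeR called 0 (0 higher, 0 lower), with 3024 at an unadjusted p below 0.05. In that grouping Stbd1 and Pgk1 reversed to log2 -0.033 and -0.032. Grouping by library name mixes libraries with and without vector RNA in both groups, so its values do not measure how well the calls hold. Without treated replicate 2 and vehicle replicates 1 and 6, an alternative chosen after seeing the data, 71 were called (28 higher, 43 lower). Leaving out 1 library gave 242 to 2539 calls, 156 to 1394 of them higher and 86 to 1145 lower. The interaction of treatment and sex gave 2 calls with no filter.

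Limits: treatment has no vector control, 4 libraries rest on titles that their library names contradict and that vector RNA matches, and 3 hold RNA of muscle, fat or nerve root. Depth limits genes near 0.03 CPM, such as Fgf21 in vehicle cords.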
